A study of Mus musculus with 52 samples.

Results

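Vehicle-treated neurons after 30 min of neuronal activity were set against vehicle-treated neurons left unstimulated for 1 h, by chromatin immunoprecipitation with sequencing (ChIP-seq) of RNA polymerase II (Pol II). The comparison used 4 of the 52 samples of the series, 2 libraries per group, chosen by their labels; the table they come from holds 31 Pol II libraries in 16 groups. All groups were primary culture neurons of the CD1 mouse strain, an outbred stock, and both groups compared received DMSO, the solvent of the MEK inhibitor used elsewhere in the series. Pol II was precipitated with abcam ab817 from cells fixed in formaldehyde. The labels name neither the stimulus nor the brain region. Nothing in them says whether replicates were independent cultures, and the p-values below reflect no more than how far libraries of a group spread. That spread was estimated over all 16 groups together, not from the 4 compared libraries alone, and it may be technical. Because the signal is an average over the culture, Pol II in more cells and more Pol II per cell cannot be told apart.

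Calcium entry during neuronal firing activates kinases that reach transcription factors already bound at promoters, such as CREB and SRF, and the first genes to respond, the immediate-early genes, need no new protein for it. Many of them encode transcription factors, including the FOS, EGR and NR4A families, which act on a later wave of genes for secreted factors, synaptic proteins and inhibitors of the pathway itself. Pol II at the transcription start site (TSS) reports how much polymerase is loaded or held there, not how much RNA is finished.

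The files give a normalized Pol II density in windows of 600 bp at TSSs, where the median control TSS is near 1. The study itself marked rapid (rPRG) and delayed (dPRG) activity-regulated windows and control windows. Of 24194 gene symbols, the 12097 in the upper 50 percent by mean density over all Pol II libraries were tested. Values were compared as log2 of the density plus 0.146, so fold changes of low genes are understated. Read counts are not given, so the depth is unknown.

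The culture carried neuronal TSS signal. Of 14 neuron markers 13 passed the density filter, and their summed density was 19.6 and 16.3 at 30 min and 14.7 and 14.3 in unstimulated neurons. GABAergic markers passed in 10 of 13 cases, with sums of 11.4 and 6.92 at 30 min and 7.99 and 5.93 unstimulated. Astrocyte markers (5 of 12 passing) summed to 7.30 and 6.35 at 30 min and 5.67 and 6.45 unstimulated, and oligodendrocyte lineage markers (5 of 12) to 5.69 and 5.47 at 30 min and 4.91 and 5.43 unstimulated. For microglia 1 of 12 passed, with sums of 1.38 and 2.44 at 30 min and 1.82 and 2.48 unstimulated, and Itgam, C1qa, C1qb and C1qc were at 0 in at least 1 of the 4 libraries. Endothelial and fibroblast markers (1 of 12) summed to 1.68 and 2.14 at 30 min and 2.83 and 2.06 unstimulated. The part of glial signal in the results was not tested.

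One library needs a remark before any result, because its signal range was the widest of all 31. In 30 min replicate 1, 11.5% of windows were at 0, against 1.64% in 30 min replicate 2 and 1.32% and 1.00% in the unstimulated libraries. The log2 density of the tested genes spanned 2.66 between percentiles 10 and 90 in 30 min replicate 1 and 2.10 in replicate 2, against 1.89 and 1.86 in unstimulated neurons. Over the 29 libraries other than the 30 min vehicle pair the span was between 1.86 and 2.61, and the highest of these was replicate 1 of the U0126 arm at 30 min, with 9.52% of its windows at 0.

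**Figure D1:**
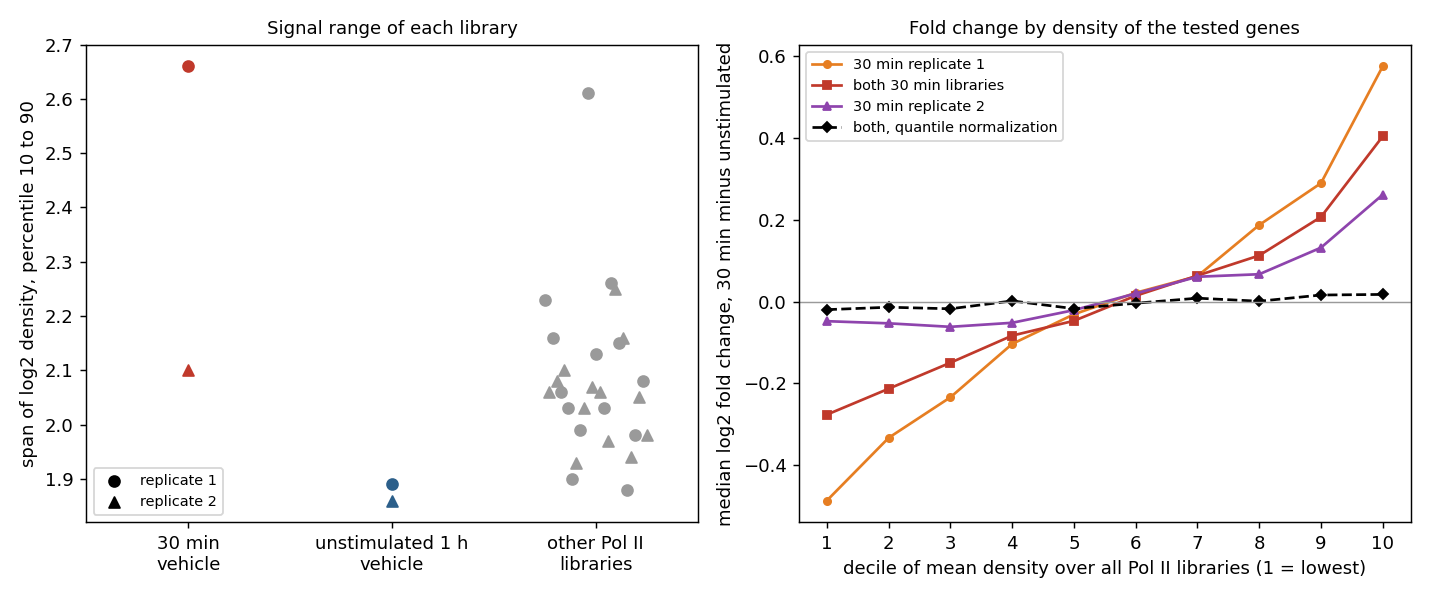
Left, the span of log2 density between percentiles 10 and 90 of the tested genes in each Pol II library (circles replicate 1, triangles replicate 2); 30 min vehicle replicate 1 is highest at 2.66. Right, the median log2 fold change of 30 min minus unstimulated in each decile of mean density (1 lowest, 10 highest), for each 30 min library and for both, with and without quantile normalization; without it the median runs between -0.28 in the lowest decile and 0.40 in the highest.

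The wide range showed as a slope of fold change on density. In the decile of lowest density the median log2 fold change was -0.49 in 30 min replicate 1 and -0.05 in replicate 2, each against the mean of the unstimulated libraries. In the decile of highest density the medians were 0.58 in replicate 1 and 0.26 in replicate 2. The slope was thus present in both libraries and steeper in the first. With quantile normalization, which gives every library the same distribution of values, the decile medians lay between -0.02 and 0.02. That step also removes any real change shared by all high or all low genes, so many of the groups of genes below are given with and without it.

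Pol II was higher at 150 genes and lower at 22 (limma, Benjamini-Hochberg adjusted p under 0.05), which is 1.24% and 0.182% of the genes tested, and 1778 genes had an unadjusted p under 0.05. All 150 rises had both 30 min libraries above both unstimulated ones, as did 25.2% of all genes tested, and all 22 falls had both below, as did 17.7%. With quantile normalization 14 genes were higher (0.116%) and 1 was lower (0.00827%), and all of them were among the 150 and 22. Leaving out 30 min replicate 1 left 9 higher and 1 lower, leaving out 30 min replicate 2 gave 382 and 196, leaving out unstimulated replicate 1 left 9 and 0, and leaving out unstimulated replicate 2 left 102 and 8. In each such fit the lone library of the group was assumed to vary like the other groups. The 9 genes called without 30 min replicate 1 were Ovca2, Nr4a1, Nr4a2, Nr4a3, Maff, Mir132, Mir212, Fos and Egr1, and these 9 were also called under each of the other settings tried.

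**Figure D2:**
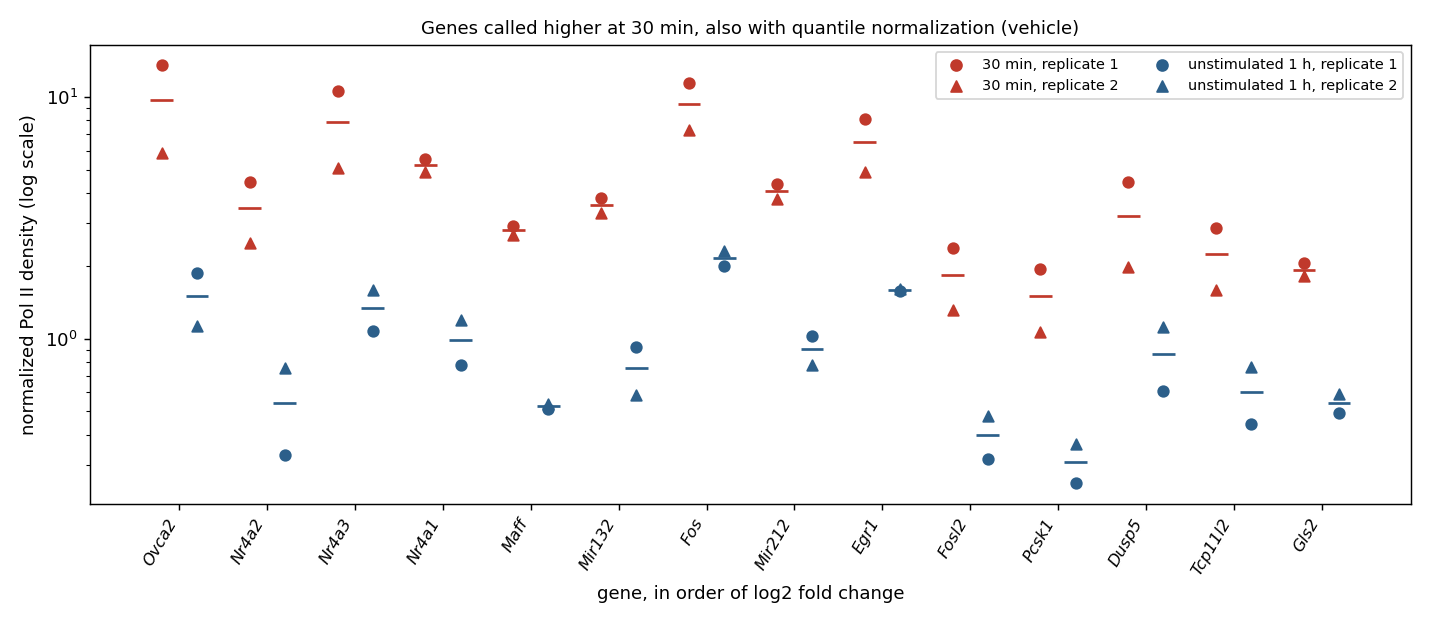
Normalized Pol II density (log scale) of the 14 genes called higher at 30 min both with median centring and with quantile normalization, in order of log2 fold change. Red marks the 30 min libraries and blue the unstimulated 1 h libraries, circles replicate 1 and triangles replicate 2, bars the mean of 2; in each gene both red points lie above both blue points.

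These 9 genes include Mir132 and Mir212, whose windows overlap, so their calls are not separate. Among the 9 were all 3 orphan nuclear receptors of the NR4A family, transcription factors with no established natural ligand. At Nr4a1 (chromosome 15, 101096976 to 101097576, mm9; rPRG) density was 5.52 and 4.89 at 30 min, against 0.775 and 1.19 in unstimulated neurons. The means were 5.21 ± 0.441 at 30 min and 0.983 ± 0.294 unstimulated (SD, n = 2 each), and the log2 fold change was 2.24 (SE 0.297, adjusted p 1.94e-05). The 30 min libraries were close to each other and far above the unstimulated pair. Nr4a2 (chromosome 2, 56967149 to 56967749; dPRG) had 4.44 and 2.50 at 30 min and 0.329 and 0.756 unstimulated, a change of 2.39 (SE 0.318, adjusted p 1.94e-05). Nr4a3 (chromosome 4, 48057876 to 48058476) had 10.6 and 5.06 at 30 min and 1.07 and 1.60 unstimulated, a change of 2.34 (SE 0.299, adjusted p 1.39e-05). For both genes replicate 1 was well above replicate 2 at 30 min, and the groups did not overlap. The Nr4a3 window used here was not marked by the study, but another window of the gene was, and the same holds for Maff.

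Promoter sequence is shown for Nr4a1, Nr4a2, Nr4a3 and Fos of this group, and for Pcsk1 and Dusp5, called rises outside it. These examples were chosen by hand, and shares over whole sets of genes follow the sequences. The cAMP response element (CRE, TGACGTCA) is the letter pattern bound by CREB, and TGACG, called its core here, is a shorter form that CREB also binds. Below, capitals mark CRE cores on either strand (TGACG or CGTCA); the full CRE, which holds 2 overlapping CRE cores, occurs once in Pcsk1. For Dusp5 the capitals also mark 2 adjacent matches to the SRF CArG box. Sequences are from RefSeq on GRCm38.p6, from 250 bases before to 50 bases after the gene start, 5′ to 3′, while the Pol II windows are on mm9, so the positions of the 2 cannot be set against each other.
Nr4a1, chr15:101266596-101266895, plus strand: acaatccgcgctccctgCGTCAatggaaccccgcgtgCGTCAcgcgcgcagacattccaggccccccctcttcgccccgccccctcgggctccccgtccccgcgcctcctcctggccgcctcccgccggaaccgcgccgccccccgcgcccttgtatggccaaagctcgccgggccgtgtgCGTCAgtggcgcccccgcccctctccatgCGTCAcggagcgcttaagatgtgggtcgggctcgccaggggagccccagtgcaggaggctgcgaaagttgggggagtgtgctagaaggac
Nr4a2, chr2:57123954-57124253, minus strand: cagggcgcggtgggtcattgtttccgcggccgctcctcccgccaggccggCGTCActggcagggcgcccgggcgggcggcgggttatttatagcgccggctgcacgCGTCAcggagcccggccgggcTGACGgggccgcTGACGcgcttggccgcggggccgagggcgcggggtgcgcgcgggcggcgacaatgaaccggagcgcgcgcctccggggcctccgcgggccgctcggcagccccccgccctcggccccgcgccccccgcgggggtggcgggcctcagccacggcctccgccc
Nr4a3, chr4:48045055-48045354, plus strand: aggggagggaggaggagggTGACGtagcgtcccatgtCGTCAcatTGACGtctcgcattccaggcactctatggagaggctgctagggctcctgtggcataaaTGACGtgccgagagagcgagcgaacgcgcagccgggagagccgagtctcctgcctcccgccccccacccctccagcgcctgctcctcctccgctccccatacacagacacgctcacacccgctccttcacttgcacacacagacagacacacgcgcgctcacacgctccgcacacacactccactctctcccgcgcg
Fos, chr12:85473640-85473939, plus strand: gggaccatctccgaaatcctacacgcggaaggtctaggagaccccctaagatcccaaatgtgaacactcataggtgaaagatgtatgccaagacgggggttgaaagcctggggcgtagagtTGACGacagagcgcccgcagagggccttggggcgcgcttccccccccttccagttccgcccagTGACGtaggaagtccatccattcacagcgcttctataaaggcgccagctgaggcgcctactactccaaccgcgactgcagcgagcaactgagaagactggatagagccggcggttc
Pcsk1, chr13:75089607-75089906, plus strand: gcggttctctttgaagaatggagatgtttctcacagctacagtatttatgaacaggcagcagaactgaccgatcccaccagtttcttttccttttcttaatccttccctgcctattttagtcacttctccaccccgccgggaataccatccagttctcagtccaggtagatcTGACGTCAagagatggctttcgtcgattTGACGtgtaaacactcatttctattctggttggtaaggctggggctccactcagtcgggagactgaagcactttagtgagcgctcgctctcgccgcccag
Dusp5, chr19:53528895-53529194, plus strand: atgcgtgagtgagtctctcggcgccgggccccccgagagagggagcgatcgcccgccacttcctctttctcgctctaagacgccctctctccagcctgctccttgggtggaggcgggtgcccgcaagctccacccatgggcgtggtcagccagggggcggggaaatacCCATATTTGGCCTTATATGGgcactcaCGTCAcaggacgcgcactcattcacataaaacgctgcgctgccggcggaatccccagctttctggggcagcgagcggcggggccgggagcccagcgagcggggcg

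Nr4a1, Nr4a2 and Nr4a3 each held 4 CRE cores in these 300 bases, Fos 2, Pcsk1 3 and Dusp5 1. This core was present in 15 of 17 promoters (88.2%) of the called rPRG and dPRG genes (16 of 18 matched the RefSeq table), and in 77 of 127 (60.6%) of the rises outside these classes (104 of 132 matched). These sets hold the 14 rises also called with quantile normalization, which had the core in 8 of 12 promoters (66.7%; 10 of 14 matched). The core was present in 7 of 22 promoters (31.8%) of the falls (17 of 22 matched). It was in 32.4% of the 12192 promoters of all genes tested and in 20.8% of all 32851 promoters of this length in the table. The full CRE was in 29.4% of promoters of the called rPRG and dPRG genes, 8.66% of the other rises, 0 of 22 of the falls and 3.48% of all genes tested. The letters TATAAA, which the general factor TFIID binds, were in 29.4%, 26.0%, 4.55% and 6.68% of the same 4 sets. The ETS pattern CCGGAAGT was in 0 of 17, 3.15%, 4.55% and 8.51%. The AP-1 pattern TGANTCA, which the FOS and JUN proteins bind, was in 0 of 17, 4.72%, 0 of 22 and 4.31%, both strands searched in each case. The EGR (GCGTGGGCG) and YY1 (AAGATGGC) patterns and the NRF1, CArG and MEF2 motifs were each in at most 5.88% of any of the 4 sets. These shares describe letters in a window, and genes with 2 starts count with both. Of the 132 rises outside the classes 91 were in the decile of highest density. The sets were not matched for density, and its part in these shares was not tested.

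Among the FOS, EGR and MAF factors, Fos itself (chromosome 12, 86814550 to 86815150; rPRG), a subunit of AP-1, had 11.4 and 7.32 at 30 min, against 2.00 and 2.30 in unstimulated neurons. Its log2 fold change was 1.99 (SE 0.23, adjusted p 2.57e-06), with no overlap between the groups. Fosl2 (chromosome 5, 32438544 to 32439144; dPRG), a FOS relative, had 2.36 and 1.31 at 30 min and 0.319 and 0.478 unstimulated, a change of 1.80 (SE 0.36, adjusted p 0.00777). Fosb had 4.40 and 2.98 at 30 min and 0.506 and 1.29 unstimulated, a change of 1.93 (adjusted p 0.00783), and it did not pass with quantile normalization (adjusted p 0.117). The zinc finger factor gene Egr1 had 8.12 and 4.88 at 30 min and 1.57 and 1.61 unstimulated, a change of 1.87 (adjusted p 4.75e-05). The small MAF factor gene Maff (chromosome 15, 79177649 to 79178249) had 2.93 and 2.68 at 30 min and 0.513 and 0.536 unstimulated, the tightest pairs of the group, and a change of 2.11 (SE 0.334, adjusted p 0.00047). Egr3 (1.44, adjusted p 0.0805), Egr2 (0.57, adjusted p 0.632) and Arc (0.51, adjusted p 0.375) did not pass at 30 min; these 3 were chosen after their values were seen.

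Read as lists, 10 of 22 rapid immediate-early genes were called higher (45.5%, beside 1.24% of all genes tested). Of these 22 genes 21 had a positive value, with a median of 1.17, against 6327 of 12097 positive and a median of 0.02 over all genes tested. The called ones were Btg2, Fos, Nr4a1, Dusp1, Egr1, Npas4, Fosb, Junb, Maff and Cyr61. Of 27 delayed activity-regulated genes 9 were called (33.3%) and 26 were positive, with a median of 0.85. The called ones were Ppp1r15a, Rgs2, Sik1, Nr4a2, Errfi1, Gadd45b, Mir132, Mir212 and Nr4a3, where Mir132 and Mir212 have overlapping windows and are not separate measurements. In the study's own classes 10 of 18 rPRG genes and 8 of 72 dPRG genes tested were called, with medians of 1.30 and 0.62, while 2 of 656 control genes were, with a median of 0.01. The study chose these classes on activity data, so their direction is not independent evidence. With quantile normalization the medians were 0.84 for the rapid list, 0.63 for the delayed list, 0.97 for rPRG and 0.53 for dPRG.

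The other 132 of the 150 rises lay in windows outside rPRG and dPRG, at 123 separate loci when windows within 1000 bp were joined. Their median log2 fold change was 1.01, with a median of 1.26 in 30 min replicate 1 alone and 0.75 in replicate 2 alone. All 132 were positive in replicate 2 alone, and 124 were larger in replicate 1. Over all 12097 genes tested, replicate 2 kept the sign of the combined change at 9633. Replicate 1 had the larger change at 7546. The 132 were called on both libraries together, so the shared sign is not separate evidence. Of the 132, 91 were in the decile of highest density and 3 in the lower 50 percent. With quantile normalization 7 of them passed, namely Ovca2, Nr4a3, Maff, Mir132, Mir212, Tcp11l2 and Gls2, and the median of the 132 was 0.63.

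**Figure D3:**
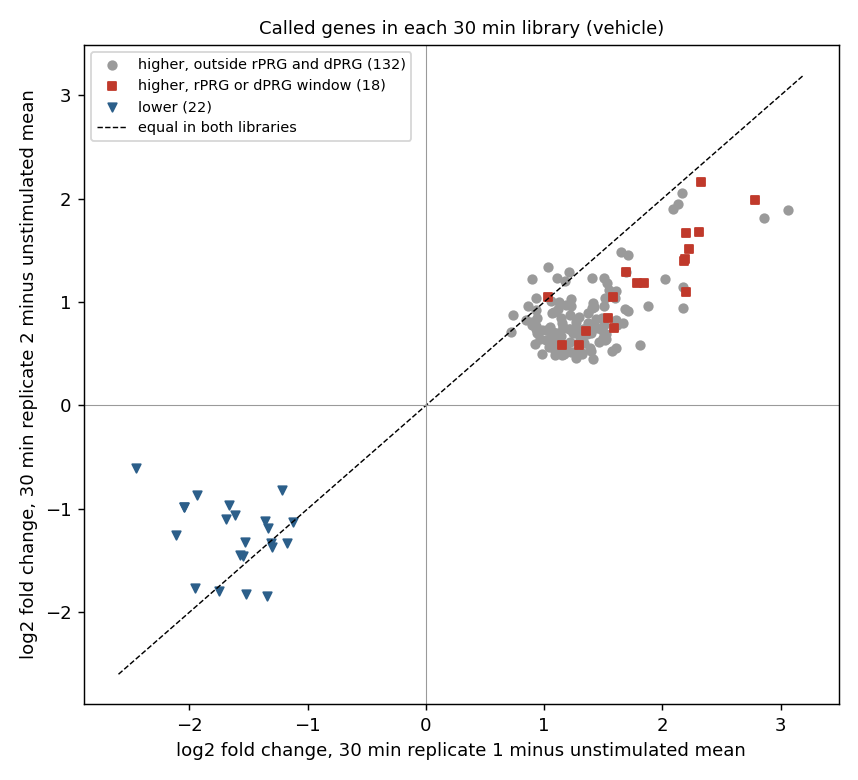
Log2 fold change of the 172 called genes in 30 min replicate 1 (horizontal) and replicate 2 (vertical), each minus the mean of the unstimulated libraries; grey circles are the 132 rises outside rPRG and dPRG, red squares the 18 rPRG or dPRG rises, blue triangles the 22 falls. All points keep their sign in both libraries, and 141 of the 150 rises lie below the dashed line of equality, larger in replicate 1. The genes were called on both libraries together, so the shared sign is not separate evidence.

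Among these rises, 3 lay together on chromosome 11. Mir132 (74986883 to 74987483) and Mir212 (74986589 to 74987189) are neighbouring microRNA genes whose windows overlap, so their values are not separate measurements, and Ovca2 (74992010 to 74992610), a predicted serine hydrolase, starts a few kb away. The mature microRNAs are shown because Mir132 and Mir212 carry the same seed. Capitals mark the seed, bases 2 to 8 (RefSeq, GRCm38.p6, 5′ to 3′), which is AACAGUC in both 3p arms and differs between the 5p arms.
miR-132-3p, chr11:75173723-75173744, plus strand: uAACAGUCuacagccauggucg
miR-212-3p, chr11:75173443-75173464, plus strand: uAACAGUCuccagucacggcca
miR-132-5p, chr11:75173686-75173707, plus strand: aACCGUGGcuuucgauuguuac
miR-212-5p, chr11:75173403-75173425, plus strand: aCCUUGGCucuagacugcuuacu

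Mir212 had a density of 4.38 and 3.80 at 30 min, against 1.03 and 0.779 in unstimulated neurons, and changed by 1.99 on the log2 scale (SE 0.226, adjusted p 2.57e-06). Mir132 had 3.80 and 3.32 at 30 min and 0.925 and 0.582 unstimulated, a change of 2.04 (SE 0.265, adjusted p 1.53e-05). Both 30 min libraries were alike at this pair of genes, and neither replicate carried the rise alone. Ovca2 had 13.5 and 5.88 at 30 min and 1.87 and 1.12 unstimulated, a change of 2.48 (SE 0.3, adjusted p 5.1e-06), the largest of the 150, and its 30 min libraries stood further apart than those of the microRNA genes.

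The neighbours differed in time. Mir212 stood at 1.03 and 0.779 in unstimulated neurons, 4.34 and 4.11 at 10 min, 4.38 and 3.80 at 30 min and 3.17 and 2.75 at 60 min. Ovca2 stood at 1.87 and 1.12 in unstimulated neurons, 1.26 and 1.43 at 10 min, 13.5 and 5.88 at 30 min and 6.86 and 6.80 at 60 min. Ovca2 was therefore no higher at 10 min than before activity, while Mir212 had reached its 30 min level. The 30 min and 10 min groups were tested against each other over all 12097 genes, and Ovca2 was the 1 gene called (0.00827%), with a log2 difference of 2.60 (SE 0.3, adjusted p 5.21e-06) and 869 genes at an unadjusted p under 0.05. Without 30 min replicate 2 that count was 28, and without 10 min replicate 2 it was 14. The 30 min minus 10 min differences were -0.06 for Mir212 (adjusted p 0.975), 0.02 for Mir132 (adjusted p 0.991) and 1.30 for Nr4a2 (adjusted p 0.474).

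Comparisons of 10, 30 and 60 min share the unstimulated libraries, so they are set side by side without a test. Egr1 was highest early, with log2 fold changes of 2.37 at 10 min, 1.87 at 30 min and 1.54 at 60 min. Fos gave 1.69, 1.99 and 1.42 at the same times, and Maff 1.63, 2.11 and 1.59. Nr4a2 gave 1.09, 2.39 and 2.10, and Pcsk1 0.36, 1.79 and 1.74, so both had higher estimates at 30 min than at 10 min. The separate limma test of 30 min minus 10 min called neither gene (Nr4a2 1.30, Pcsk1 1.43, adjusted p 0.474 each). By 180 min Ovca2 was at 1.85 and 1.65, close to its unstimulated density, while Nr4a3 was at 3.17 and 3.10.

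Secreted proteins and their processing were the next group. Pcsk1 (chromosome 13, 75227134 to 75227734; dPRG), which encodes a prohormone convertase that cleaves neuropeptide precursors, had 1.94 and 1.06 at 30 min, against 0.253 and 0.366 in unstimulated neurons. Its change was 1.79 (SE 0.384, adjusted p 0.0145). Vgf (chromosome 5, 137505864 to 137506464), a neuropeptide precursor, had 6.03 and 4.49 at 30 min and 1.29 and 2.29 unstimulated, a change of 1.49 (adjusted p 0.00754). Chga, the granin chromogranin A, had 5.28 and 3.23 at 30 min and 1.73 and 2.12 unstimulated, a change of 1.03 (adjusted p 0.049). Of 10 late and secreted genes tested, these 3 were called (30.0%, beside 1.24% of all genes) and 9 were positive, with a median of 0.59, where 22 were listed and 10 of them passed the density filter. The neurotrophin gene Bdnf, of the delayed list and added here after its value was seen, was at -0.25 (adjusted p 0.832) in its strongest window. With quantile normalization Pcsk1 passed and Vgf and Chga did not (adjusted p 0.216 and 0.494).

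Among the ERK feedback and target genes, Dusp5 and Spry4, which restrain ERK signalling, were called higher. Dusp1 and Errfi1, named above, were called in the rapid and delayed lists and are not counted here. Dusp5 (chromosome 19, 53603299 to 53603899; rPRG), a nuclear phosphatase of ERK, had 4.44 and 1.98 at 30 min and 0.606 and 1.12 in unstimulated neurons, a change of 1.65 (SE 0.314, adjusted p 0.00486). Spry4, an inhibitor of receptor tyrosine kinase signalling, had 3.83 and 2.21 at 30 min and 0.94 and 1.21 unstimulated, a change of 1.31 (adjusted p 0.0321; 0.216 with quantile normalization). With Fosl2 these were the 3 of 24 ERK feedback and target genes called, which is 12.5% beside 1.24% of all genes, and 20 of the 24 were positive, with a median of 0.45 (0.41 with quantile normalization).

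Further large rises outside the study's classes had varied functions. Tcp11l2 (chromosome 10, 84039391 to 84039991) had 2.88 and 1.59 at 30 min and 0.442 and 0.765 unstimulated, a change of 1.62 (SE 0.295, adjusted p 0.00301). Gls2 (chromosome 10, 127631390 to 127631990), a glutaminase that makes glutamate from glutamine, had 2.05 and 1.81 at 30 min and 0.494 and 0.59 unstimulated, a change of 1.57 (SE 0.289, adjusted p 0.00315). In both genes the groups were well apart, and Gls2 rose almost equally in the 2 libraries. Mmp23, a metalloproteinase, changed by 1.66 (adjusted p 0.0268), with 1.55 and 0.682 at 30 min and 0.21 and 0.235 unstimulated. Pmaip1, the pro-apoptotic BH3 protein NOXA, changed by 1.56 (adjusted p 0.0454), with 2.38 and 0.92 at 30 min and 0.283 and 0.55 unstimulated. Dgat1, which makes triglycerides, changed by 1.42 (adjusted p 0.00918), Cyr61, a secreted matrix protein, by 1.37 (adjusted p 0.00296), Amdhd2, an enzyme of amino sugar metabolism, by 1.36 (adjusted p 0.00918) and the stress gene Gadd45b by 1.36 (adjusted p 0.00817). These 6 did not pass with quantile normalization, where their adjusted p-values were between 0.0599 for Mmp23 and 0.266 for Gadd45b.

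Protein synthesis genes were high as a group and moved by small amounts. Of 78 cytosolic ribosomal protein genes tested 77 were positive, between -0.10 and 1.06, with a median of 0.51, and 6 were called (7.69%, beside 1.24% of all genes). Rpl10 changed by 1.06 (adjusted p 0.0228), with 2.45 and 3.09 at 30 min and 1.21 and 1.23 unstimulated, so replicate 2 was the higher of the 30 min pair. Rpl41 changed by 0.87 (adjusted p 0.0386). The median was 0.63 in replicate 1 alone, 0.37 in replicate 2 alone and 0.21 with quantile normalization, where 59 of 78 were positive and 0 were called. Their median density, 2.24, was above the 0.968 of all genes tested, in the range where the decile medians of fold change were positive. The 76 mitochondrial ribosomal protein genes, with a median density of 1.23, had a median of -0.01 and 0 calls. Eif5a, a translation factor (0.99, adjusted p 0.0454), was the 1 of 51 in its list called (1.96%). The list median was 0.27, or 0.08 with quantile normalization.

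Genes of RNA processing and the transcription apparatus gave scattered calls. The splicing factor genes Srsf3 (0.90, adjusted p 0.0284) and Hnrnpab (0.80, adjusted p 0.0378) were the 2 of 52 called (3.85%, beside 1.24% of all genes). The list's median was 0.40, with 0.39 in each 30 min library alone and 0.17 with quantile normalization. Of 98 genes of the Pol II machinery 3 were called (3.06%), with a median of 0.09, or 0.003 with quantile normalization. They were Taf4b and Taf13, which encode subunits of the promoter factor TFIID (1.31 and 1.09, adjusted p 0.0391 and 0.0168), and Polr2a, the largest Pol II subunit. Polr2a had one of the highest densities in the table, 17.6 and 11.5 at 30 min and 8.66 and 7.48 unstimulated, a change of 0.79 (SE 0.201, adjusted p 0.0391). It became 0.09 by quantile normalization, -0.13 by cyclic loess and -0.02 by scale normalization, so its direction depends on the scaling. Of 74 histone genes 1 was called (1.35%, near the 1.24% of all genes). It was H2afz, a histone variant placed at start sites (1.10, adjusted p 0.0122). The histone list's median was 0.39 with median centring and -0.14 with quantile normalization, again a change of direction, and its median density was 3.86.

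Chaperone genes had 4 calls among 67 tested (5.97%, beside 1.24% of all genes) and a median of 0.24, or 0.08 with quantile normalization. The called members were Dnajb9 and the cytosolic chaperones Hspa2, Hspa4 and Hsp90ab1, with changes of 0.97, 0.96, 0.91 and 0.76 and adjusted p-values of 0.0098, 0.0386, 0.0411 and 0.0321. Among 16 actin cytoskeleton genes 3 were called (18.8%), and the list's median was 0.13, or 0.01 with quantile normalization. They were Flna (0.89, adjusted p 0.0378), Cfl1 (0.86, adjusted p 0.0311) and Actb (0.84, adjusted p 0.0391), which encode filamin, cofilin and beta-actin. None of these 7 passed with quantile normalization.

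Neuronal and trafficking genes among the rises came 1 or 2 to a list. Syt4, a synaptotagmin of vesicle release, changed by 1.17 (adjusted p 0.0186), with 1.67 and 1.83 at 30 min and 0.847 and 0.543 unstimulated, 1 of 45 presynaptic genes. Grin1, the obligatory NMDA receptor subunit, changed by 0.97 (adjusted p 0.0487), with 2.47 and 1.64 at 30 min and 1.17 and 0.742 unstimulated, 1 of 24 glutamate and GABA receptor genes, whose median was -0.19. Pcdh10, a protocadherin, changed by 0.85 (adjusted p 0.0268), 1 of 27 in its list, and Tubb3, a neuronal tubulin in a window the study marked as control, by 0.80 (adjusted p 0.0268). The Pcdh10 window overlaps that of 2610316D01Rik, itself called higher. Arl15 and Rab13 were the 2 of 113 trafficking genes (0.82 each, adjusted p 0.0435 and 0.0449), but the Rab13 window overlaps that of Rps27. The window of Gpr137c (1.09, adjusted p 0.0378) overlaps that of Txndc16. Of the 150 genes called higher 33 had such an overlap with another symbol, as had 3 of the 22 called lower. Single calls also came from Ube2s (0.97, adjusted p 0.037; 89 ubiquitin conjugation and F-box genes), Ndufv1 (1.19, adjusted p 0.0391; 78 respiratory chain genes) and Zfp869 (0.84, adjusted p 0.049; 320 zinc finger genes). The shares called in these lists lay between 0.312% and 4.17%, and for the neuron markers that hold Tubb3 it was 1 of 13 (7.69%), beside 1.24% of all genes.

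In 9 lists other than cell type markers 0 genes were called, and the member with the lowest p is given for 6 of them. These were Gapdh of 17 glycolysis genes (0.71, adjusted p 0.0665), Per1 of 16 clock genes (1.08, adjusted p 0.0788), Slc7a5 of 191 solute carriers (0.95, adjusted p 0.0543), Timm17b of 22 mitochondrial import genes (0.93, adjusted p 0.0605), Hdac10 of 78 chromatin modifiers (-1.14, adjusted p 0.0836) and Psmb1 of 44 proteasome genes (0.59, adjusted p 0.247). The list medians were 0.26, 0.08, 0.06, -0.02, 0.13 and 0.21 in the same order.

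**Figure D4:**
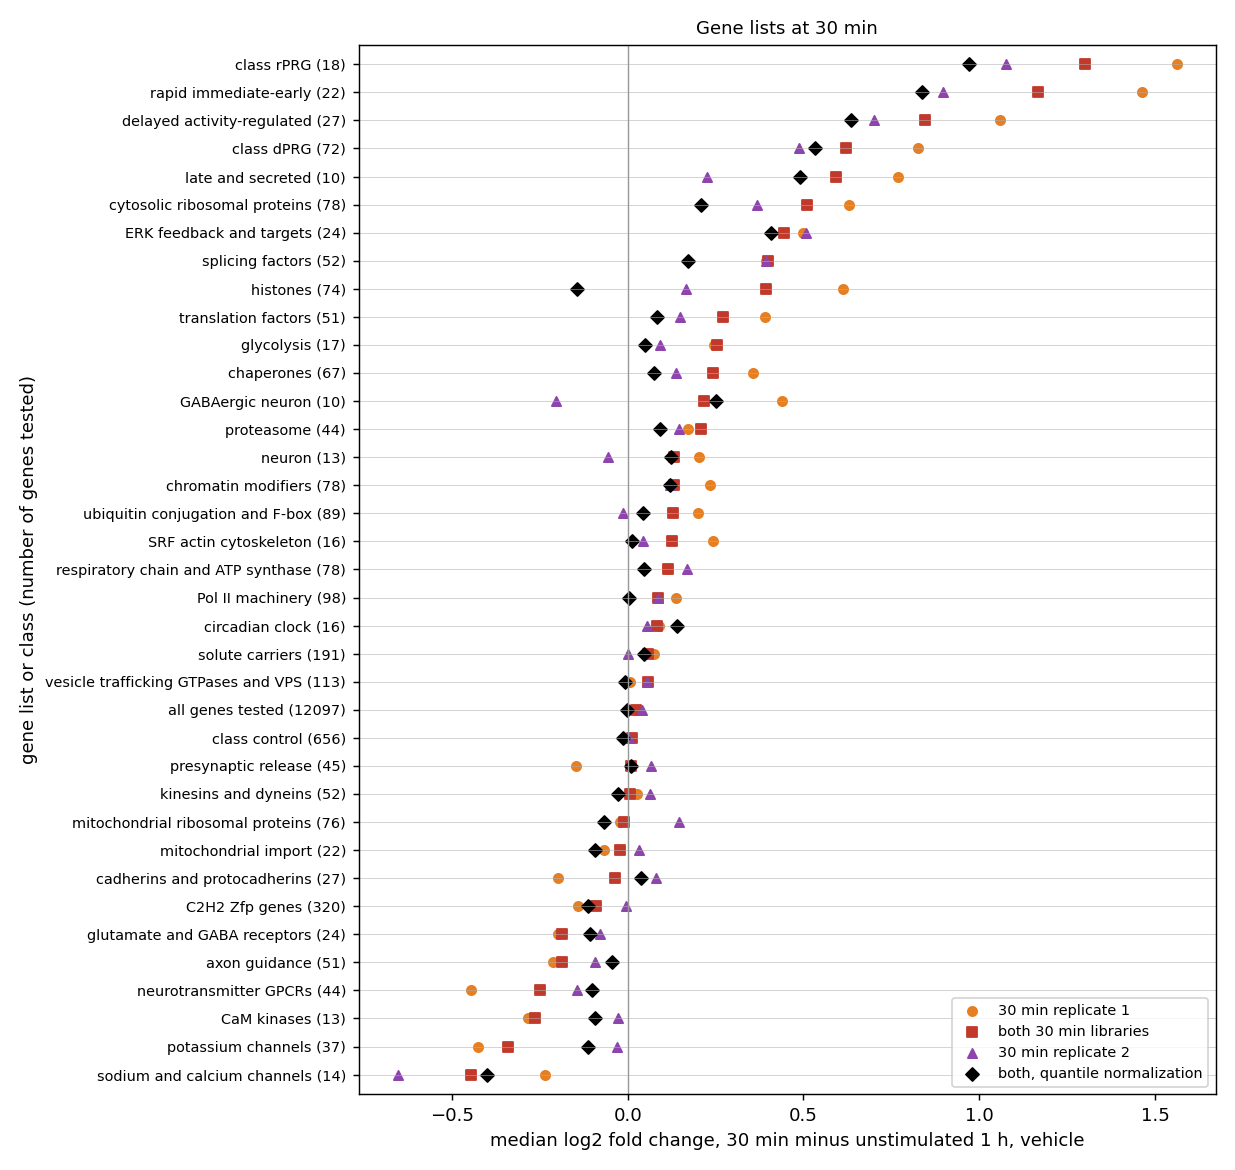
Median log2 fold change (30 min minus unstimulated 1 h, vehicle) of each gene list or study class with 10 or more tested genes, the number tested in brackets, for 30 min replicate 1, both libraries, replicate 2, and both with quantile normalization. The rapid and delayed lists lie to the right by all 4 measures, histones cross 0 with quantile normalization, and sodium and calcium channels lie to the left by all 4.

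The 22 falls were low at 30 min and ordinary in the unstimulated 1 h vehicle libraries, the ones they were called against. Their median density was 0.215 and 0.31 at 30 min, against 1.02 and 0.814 in unstimulated neurons, where the medians of all genes tested were 0.944 and 0.945. By the mean over all libraries, 20 of the 22 were in the lower 50 percent of the tested genes. None was at 0 in 30 min replicate 1; the 30 min densities ran between 0.0383 and 0.609 and the unstimulated ones between 0.327 and 1.54. All 22 were negative in each 30 min library taken alone, with a median of -1.56 in replicate 1 and -1.22 in replicate 2, and 15 were larger in replicate 1. The 22 were called on both libraries together, so the shared sign is not separate evidence. With quantile normalization the median was -1.22 and 1 of the 22 passed.

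That gene was A230050P20Rik (chromosome 9, 20672785 to 20673385), a clone-named gene with no function given in the files. It had 0.167 and 0.207 at 30 min, against 1.31 and 0.815 in unstimulated neurons, so that its log2 fold change was -1.86 (SE 0.356, adjusted p 0.00534; with quantile normalization -1.69, adjusted p 0.0251). Both 30 min libraries were low and near each other. Other unstimulated groups lay below the 1 h vehicle pair, at 0.613 and 0.585 in 6 h vehicle and 0.556 and 0.518 in 1 h U0126. Its call was kept in 2 of 5 fits that left out libraries, and the highest adjusted p was 0.248.

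**Figure D5:**
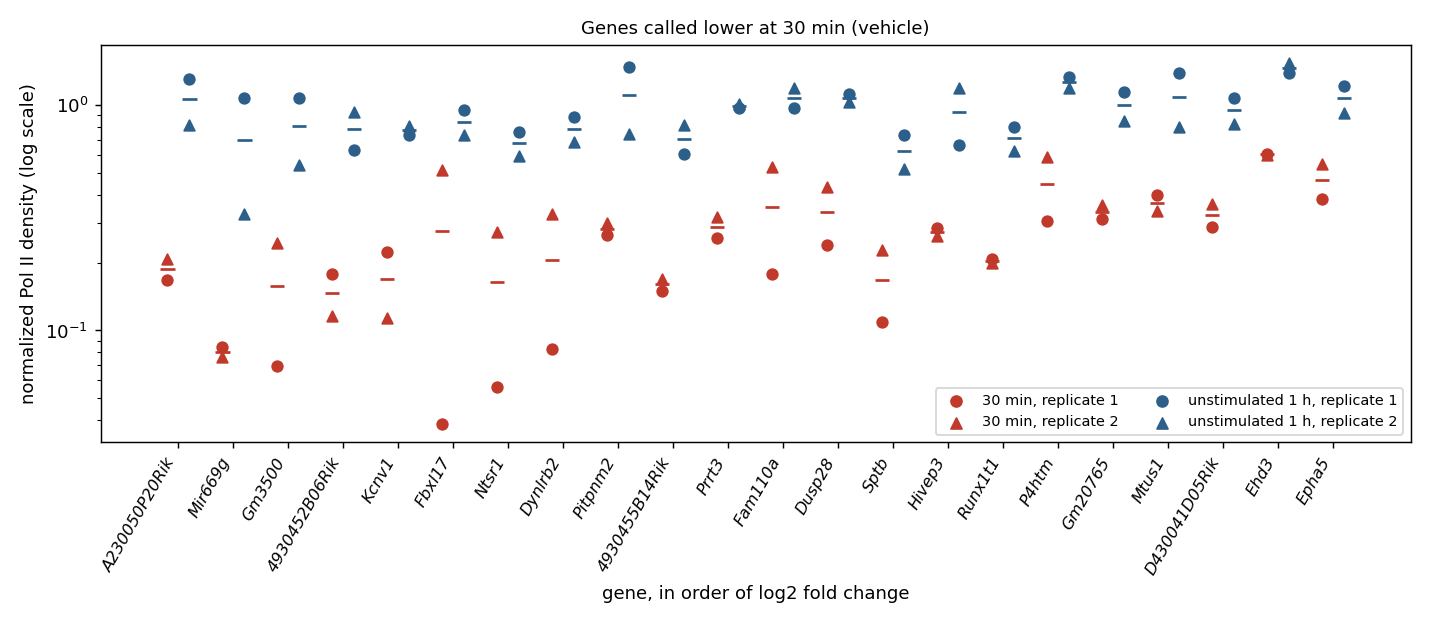
Normalized Pol II density (log scale) of the 22 genes called lower at 30 min, in order of log2 fold change. Red marks the 30 min libraries and blue the unstimulated 1 h libraries, circles replicate 1 and triangles replicate 2, bars the mean of 2; all red points lie below the blue points of the same gene, and for Fbxl17, Ntsr1 and Dynlrb2 replicate 1 is far below replicate 2.

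Among the falls with a known function, membrane excitability and signalling were represented by single genes. Kcnv1 (chromosome 15, 44946180 to 44946780), a potassium channel subunit that is silent alone and modifies other channels, had 0.223 and 0.114 at 30 min and 0.739 and 0.811 unstimulated, a change of -1.60 (SE 0.386, adjusted p 0.0309). Ntsr1 (chromosome 2, 180234380 to 180234980), the neurotensin receptor, had 0.0563 and 0.273 at 30 min and 0.759 and 0.593 unstimulated, a change of -1.52 (adjusted p 0.0386). Epha5 (chromosome 5, 84846107 to 84846707), an ephrin receptor of axon guidance, had 0.384 and 0.547 at 30 min and 1.22 and 0.92 unstimulated, a change of -1.02 (adjusted p 0.0435). In Kcnv1 replicate 2 was the lower of the 30 min pair, whereas in Ntsr1 the value of replicate 1 was the lower by far. Fbxl17, a substrate receptor of a ubiquitin ligase, had 0.0383 and 0.514 at 30 min and 0.949 and 0.739 unstimulated, a change of -1.52 (adjusted p 0.0378), of which replicate 2 alone gave -0.60. Dynlrb2, a dynein light chain, changed by -1.51 (adjusted p 0.0421).

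The remaining named falls were of nuclear, cytoskeletal and membrane genes. Runx1t1, a transcriptional corepressor, had 0.207 and 0.20 at 30 min and 0.802 and 0.628 unstimulated, a change of -1.32 (adjusted p 0.0378). Prrt3, a proline-rich membrane protein, had 0.256 and 0.318 at 30 min and 0.97 and 1.01 unstimulated, a change of -1.42 (SE 0.318, adjusted p 0.0198). In these genes the 2 libraries of each group were close. Hivep3, a zinc finger factor, changed by -1.33, Sptb, a beta-spectrin, by -1.34, Pitpnm2, a phosphatidylinositol transfer protein, by -1.51, the phosphatase gene Dusp28 by -1.39, Fam110a by -1.40 and P4htm, a prolyl hydroxylase, by -1.31, with adjusted p-values between 0.0378 and 0.0444. Of the 22 falls 7 were predicted, clone-named or microRNA genes, and Mir669g lies in a cluster of near-identical microRNAs whose reads may not be separable. None of these falls, other than A230050P20Rik, passed with quantile normalization, where adjusted p-values of the 13 named here were between 0.116 and 0.216.

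The lists with the lowest medians were of ion channels, CaM kinases and receptors coupled to G proteins. Of 37 potassium channel genes tested (of 95 in the table) 27 were negative, with a median of -0.34, and 1 was called lower (2.70%, beside 0.182% of all genes). That median was -0.43 in replicate 1, -0.03 in replicate 2 and -0.11 with quantile normalization, so it was lower in replicate 1 than in replicate 2. Of 14 sodium and calcium channel genes 13 were negative, with a median of -0.44, and 0 were called. Here the median was -0.23 in replicate 1, -0.65 in replicate 2 and -0.40 with quantile normalization, so it was lower in replicate 2 than in replicate 1. The lowest p in that list was that of Cacng4, a calcium channel gamma subunit, with 0.143 and 0.328 at 30 min and 0.584 and 0.625 unstimulated (-1.05, adjusted p 0.149). The list of G protein-coupled receptor genes had a median of -0.25 over 44 genes. Its 1 rise (2.27%, beside 1.24% of all genes) was Gpr137c, whose window overlaps that of Txndc16, and its 1 fall (2.27%) was Ntsr1. Axon guidance genes had a median of -0.19 over 51 with 1 fall (1.96%). CaM kinases had -0.26 over 13 with 0 calls, where Camk4 was at -1.21 (adjusted p 0.101). The median density of these lists was between 0.450 and 0.729, in the range where the decile medians of fold change were negative. The part of density in these medians was not tested beyond the quantile values. Those of the receptor, axon guidance and CaM kinase lists were -0.10, -0.05 and -0.09.

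The same time was measured in neurons treated with U0126, an inhibitor of the ERK-activating kinases MEK1 and MEK2, against unstimulated U0126 neurons of 1 h, a contrast that shares no library with the vehicle contrast, although all libraries share the density filter and the estimate of spread. In that arm 49 genes were higher (0.405%) and 4 lower (0.0331%), and replicate 1 at 30 min again had a wide range. Leaving out 30 min replicate 1 or 2 of U0126 gave 4 and 259 calls in all, and leaving out unstimulated replicate 1 or 2 gave 5 and 21. All 150 genes called higher in vehicle had a positive value in the U0126 arm, with a median of 0.81, and 35 of them were called there. Over all genes tested 6384 of 12097 were positive there, with a median of 0.03. The slope on density was also present in that arm, with a median of 0.38 in the decile of highest density, which holds 103 of the 150, so its part in this count was not tested. Of the 22 falls 20 were negative, with a median of -0.56, and 0 were called. Ovca2 changed by 1.78 in U0126 (adjusted p 0.00125), Nr4a3 by 2.34 (adjusted p 5.63e-05), Mir212 by 1.70 (adjusted p 6.17e-05) and Gls2 by 1.69 (adjusted p 0.00142). Maff was at 0.88 (adjusted p 0.266), with 1.35 and 1.58 at 30 min and 0.565 and 0.906 unstimulated in U0126, and Tcp11l2 at 0.75 (adjusted p 0.294). The difference between the arms was tested as an interaction, which called 0 of 12097 genes with 232 at an unadjusted p under 0.05, so no gene was shown to respond differently at 30 min.

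H3K27ac, histone H3 acetylated on lysine 27 and found at active enhancers and promoters, was measured by the authors at 940 regions in vehicle-treated neurons, in 2 libraries at 30 min and 2 unstimulated, as a normalized signal whose scale is not stated. At 30 min 0 regions were called against unstimulated neurons by limma, and 40 had an unadjusted p under 0.05 (lowest adjusted p 0.832). Regions whose nearest gene was called higher by Pol II numbered 107 at 24 genes, and 62 of them were positive, with a median log2 change of 0.07 beside 0.04 over all regions. No region had a called fall as its nearest gene. The region of lowest p lay 37630 bp from Fos (chromosome 12, 86776490 to 86777950), with 2.95 and 3.03 at 30 min and 0.767 and 1.49 unstimulated, a change of 1.15 (SE 0.289). A region 2447 bp from Nr4a3 had 5.68 and 6.04 at 30 min and 4.76 and 3.49 unstimulated (0.53), and a region 40503 bp from Spry4 had 0.558 and 0.285 at 30 min and 1.14 and 1.34 unstimulated (-0.77). None of these 3 regions passed over the 940.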

How the data were processed

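Pol II ChIP-seq of 31 libraries and H3K27ac ChIP-seq of 16 libraries were used, and 5 input libraries were not. The authors deposited a normalized Pol II density (signal) in 27815 TSS windows of 600 bp, scaled to control TSSs per the file headers, and a normalized H3K27ac signal at 940 regions whose scale is not stated. Distances from regions to genes were deposited by the authors in bp, and at 10 regions the deposited nearest gene names differ. Bowtie2, SAMtools, bedtools and mm9 are named in the submitters' processing notes, with versions not given in the sources used here. No counts are given, so the depth and any counting interval are unknown.

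For each symbol the window with the highest mean density was kept. Densities plus 0.146 (percentile 25; 0.628 for H3K27ac) were log2-transformed and centred on each library's median. Genes above a mean density of 0.301 were fitted in limma 3.58.1 (R 4.3.3) over all 16 groups, which share 1 estimate of the spread (15 residual and 18.7 prior degrees of freedom; 8 and 4.17 for H3K27ac), with Benjamini-Hochberg adjustment over all genes tested. The code was tested on simulated data, and figures were drawn in Python 3.11.15 with matplotlib 3.10.9. Promoter and microRNA sequences came from RefSeq (GRCm38.p6) and were matched by symbol. Alternatives were other normalizations, filters, pseudocounts and sets of libraries, a replicate block, another unstimulated group and each library left out.

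The comparison, its members and the 37 gene lists were chosen with earlier results of these data known. Genes were named by rule: those given as markers, up to 8 rPRG or dPRG genes, up to 12 other rises and up to 12 falls by size, calls that passed with quantile normalization, and up to 3 called members of each list, or the member of lowest p. Egr2, Egr3, Arc, Bdnf, Hsp90ab1, Txndc16, Rps27, Mir669g, 2610316D01Rik and further list members without values were named after their values were seen.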

Additional observations from a re-analysis of the deposited data

How the results depend on the processing

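The 150 rises and 22 falls depended on the treatment of the signal range and on single libraries. The counts higher and lower were 14 and 1 with quantile, 19 and 1 with scale and 20 and 1 with cyclic loess normalization, 86 and 5 with array weights, 75 and 8 in the upper 25 percent by density, 78 and 6 in vehicle libraries only, and 29 and 1 in the compared groups only. Against the unstimulated 6 h group they were 92 and 14, of which 57 and 7 were among the 150 and 22, and against both unstimulated groups 327 and 66. With no filter 1 fall was left. Leaving out 1 library gave between 9 and 382 rises and between 0 and 196 falls; leaving out replicate 1 at 30 min of both arms, chosen after seeing the data, gave 9 and 0. Other pseudocounts, no centring and all windows stayed within 1.5 times the first counts.

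With the replicate number as a block, 507 genes were higher and 155 lower, and the U0126 arm had 326 calls. Differences between replicate 1 and replicate 2 in the compared groups correlated at r = 0.0534 across genes, under 0.1. For these differences, 95 of 105 pairs of groups were over 0.1. Taken as deviations from the group mean, 30 of 30 libraries correlated best with one of their own number. This is a hint, from the data and not the labels, of something shared by replicate number; the block was kept as an alternative because not all pairs were over 0.1 and no label says what a number marks.

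The 30 min against 10 min comparison gave 1 call under the alternatives that keep all libraries and between 1 and 28 with 1 left out. The 53 calls of the U0126 arm became 12 with no filter, 14 with quantile normalization and between 4 and 259 with 1 library left out. The interaction and H3K27ac comparisons gave 0 calls under each alternative run. Polr2a reversed, to -0.0199 with scale and -0.13 with cyclic loess normalization. The causes were not tested. Groups of 2 and an unknown depth limit all these counts.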

Other observations

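Further gene groups were put together after the values were seen, and some of their members are also in lists used above. Their counts are a description with no test, to be read beside the 1.24% of all genes tested that were called higher, the 6327 of 12097 that were positive and the overall median of 0.02. Of 30 p53 target genes tested 7 were called higher and 20 were positive, with a median of 0.32 (0.11 with quantile normalization). They were Gls2, Pmaip1, Pcna, Rbm38, Triap1, Btg2 and Ercc5. Pcna, the sliding clamp of DNA replication and repair, had a density of 6.01 and 4.01 at 30 min, against 1.66 and 2.07 in unstimulated neurons, a log2 fold change of 1.32 (adjusted p 0.000686, limma). Triap1, an inhibitor of apoptosis, had 1.55 and 1.54 at 30 min and 0.636 and 0.836 unstimulated, a change of 0.93 (adjusted p 0.049). The p53 targets Cdkn1a, at 0.34 (adjusted p 0.6), Mdm2, at -0.36 (adjusted p 0.443), and Bax, at -0.62 (adjusted p 0.307), did not pass.

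Lipid, tubulin and housekeeping groups were counted in the same way. Of 20 sterol synthesis genes 19 were positive, with a median of 0.49 (0.83 in 30 min replicate 1 alone, 0.17 in replicate 2 alone), and 2 were called, among them Hsd17b7 (0.97). Triglyceride and fatty acid genes had a median of 0.05 over 18, with 3 called. Tubulins had 3 of 11 called and a median of 0.53, which was 0.04 with quantile normalization. Both ferritin genes were called (median 0.85; 0.21 with quantile normalization), as were 2 of 15 snoRNA host genes (median 0.59), 2 of 22 genes of the unfolded protein response (median 0.35) and 3 of 10 ubiquitin and SCF genes (median 0.33). With quantile normalization the medians were 0.265 for sterol synthesis, 0.192 for snoRNA host genes, 0.138 for the unfolded protein response and 0.191 for ubiquitin and SCF genes. Of all the genes called in these 8 groups, Gls2 passed with quantile normalization.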
